A study of Homo sapiens with 9 samples.

Results

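The Notch genes described here are 10 of the 58735 gene identifiers in the count table, chosen by name: the ligands JAG1 and JAG2, the receptors NOTCH1, NOTCH2 and NOTCH3, the fringe enzymes LFNG, MFNG and RFNG, and the target genes HES1 and HEY1. All 10 were found by their symbols in the GENCODE annotation of GRCh38. RNA was sequenced from 786-0 cells, a clear cell renal cell carcinoma line that is VHL defective and lacks functional HIF1α, so that HIF2α is expressed constitutively. The 3 groups of 3 replicates, all kept under normoxia (21% O2) for 48 h, were untreated parental cells (WT), WT cells given 10 μM of the HIF2α antagonist PT2385 over the same 48 h, and untreated HIF2α knockout cells (KO). How the knockout was made, and whether the KO line is a clone or a pool, is not given in the sources used here. The sources also do not say whether replicates were separate cultures, so p-values measure the spread between these libraries, which may be technical.

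Notch signalling passes between touching cells. A ligand of the Jagged or Delta type on a cell binds a Notch receptor on its neighbour, the receptor is then cut outside the membrane by ADAM10 and inside it by γ-secretase, and the freed intracellular part enters the nucleus, where it joins the DNA-binding protein RBPJ and Mastermind coactivators. Genes of the HES and HEY families, which encode transcriptional repressors, are the best known direct targets. Fringe enzymes add a sugar to the O-fucose of the receptor's EGF-like repeats and so change which ligands it answers to. In the kidney the pathway takes part in nephron segmentation, and JAG1 is expressed in developing renal epithelium. The counts measure mRNA only and not receptor cleavage or protein.

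To show the regulatory sequence next to the genes called higher upon PT2385 treatment, the 250 bases before the annotated start of JAG1 and HES1 are printed, read 5′ to 3′ on the strand of the gene (RefSeq, GRCh38.p14). The RefSeq promoter table held entries for 8 of the 10 genes, MFNG and HEY1 being the others. In the HES1 sequence (chr3:194135898-194136147, plus strand) the capitals mark the motif TGGGAA, the core bound by RBPJ, and in the JAG1 sequence (chr20:10674000-10674249, minus strand) they mark ACGTG and GCGTG, the core of the hypoxia response element bound by HIF, on either strand.
HES1: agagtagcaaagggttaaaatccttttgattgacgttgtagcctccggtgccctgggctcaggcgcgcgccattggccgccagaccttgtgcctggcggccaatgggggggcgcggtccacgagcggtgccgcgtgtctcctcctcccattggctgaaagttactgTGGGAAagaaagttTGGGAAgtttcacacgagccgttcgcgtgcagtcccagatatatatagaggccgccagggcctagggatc
JAG1: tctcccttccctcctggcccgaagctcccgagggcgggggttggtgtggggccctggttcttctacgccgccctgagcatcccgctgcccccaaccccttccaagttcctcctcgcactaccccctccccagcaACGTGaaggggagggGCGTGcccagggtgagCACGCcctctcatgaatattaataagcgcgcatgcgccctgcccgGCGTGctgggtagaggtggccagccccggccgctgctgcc
HES1 held 2 copies of TGGGAA in the same orientation, the first 84 and the second 70 bases before the start. Searched on both strands, TGGGAA occurred in 20.8% of the 35116 promoters of the table, and 2 or more copies in 2.9%. Among the other 7 genes with an entry, it was found only at 1 of the 2 LFNG starts. JAG1 held 1 copy of ACGTG and 3 of GCGTG, and at least 1 copy occurred in 18.5% and 32.2% of promoters. At least 2 copies of GCGTG occurred in 10.2%, and HES1 and NOTCH1 held 2 each. The 2 copies in HES1, the first 119 and the second 46 bases before the start, are not in capitals above. JAG1 was the only 1 of the 8 genes with ACGTG in this window, while GCGTG was found in all of them but NOTCH2. These matches are letters in a window and not measured binding. Only these exact letters were searched, so sites bound through variants of a motif are not marked.

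Total counts per library lay between 11881000 and 14730081. EPAS1, the gene of HIF2α, had 256 ± 20.0 counts-per-million (CPM, scaled by edgeR's TMM factors over the 9 libraries) in WT, 238 ± 16.8 with PT2385 and 22.1 ± 2.52 in KO (SD, n = 3). Its mRNA was thus lower in KO, where 262 to 360 reads per library remained. A fall in mRNA alone cannot tell a knockout from silencing, and KO is the name given by the sample titles. VEGFA, which the study names as a HIF2α target, was at 326 ± 9.58 CPM in WT. It was lower in both conditions, at 75.1 ± 5.87 CPM with PT2385 and 74.2 ± 10.4 in KO. The 4 renal epithelial markers reported (PAX2, PAX8, LHX1 and CDH6) were above 3 counts in every library, with a summed level of 785 to 799.9 CPM in WT, 864 to 962 with PT2385 and 865 to 991 in KO. None of the 5 endothelial or 5 leukocyte markers was, and PECAM1, VWF, ERG and CD3E had 0 counts throughout. Their summed levels were at most 0.540 CPM and 1.44 CPM in any library. Of the renal markers, PAX2 was lower and CDH6 higher than WT in both conditions, and their part in the results was not tested. In RNA from whole cultures, fewer cells of a kind and less RNA per cell cannot be told apart.

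Each pair of groups was compared in a fit over all genes that passed a filter on low counts, by the quasi-likelihood test of edgeR, with p-values adjusted by the Benjamini-Hochberg method over all of them. A gene was called at an adjusted p under 0.05. Of the 10 Notch genes 9 passed the filter, and NOTCH3 did not. Upon PT2385 treatment 3 of the 9 were called: JAG1 and HES1 rose and MFNG fell. In that comparison 7.7% of all 15089 tested genes were called, 3.08% as higher and 4.62% as lower (15.3% with the replicate number in the model, which also called 3 Notch genes). In KO against WT 7 of the 9 were called, where JAG1, NOTCH2, MFNG and HES1 rose and LFNG, NOTCH1 and HEY1 fell, beside 30.1% of 15192 genes (14.7% higher and 15.4% lower). In KO against PT2385 7 of the 9 were called, 2 higher and 5 lower, beside 18.8% of 15402 genes (8.47% higher and 10.3% lower). For 1 gene alone, 3 libraries against 3 allow no two-sided exact permutation p under 0.1.

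**Figure D1:**
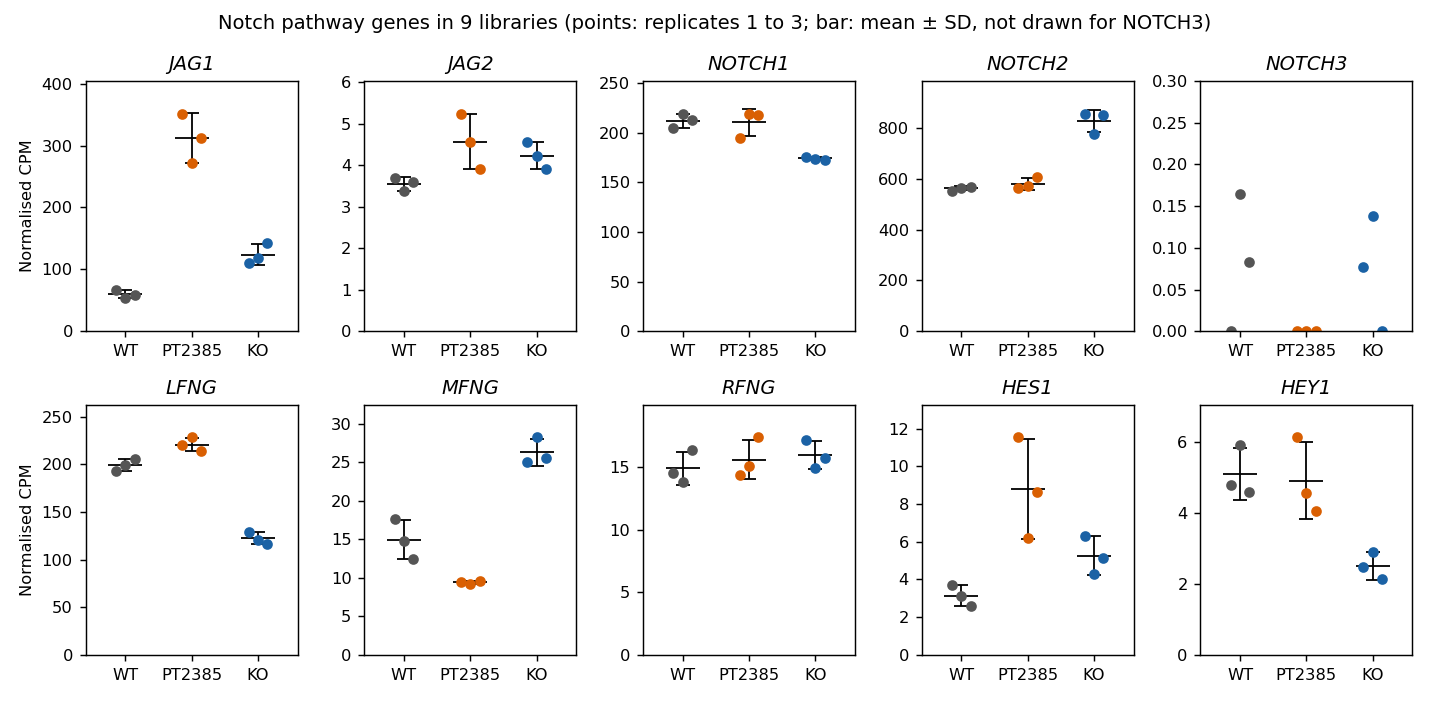
Normalised CPM of the 10 Notch genes in WT, PT2385-treated and KO libraries, on linear axes that start at 0; each point is a replicate and bars give the mean ± SD of 3 (not drawn for NOTCH3, with at most 2 reads). JAG1 was highest with PT2385 and intermediate in KO, MFNG was lowest with PT2385 and highest in KO, and NOTCH2, LFNG and HEY1 stood apart in KO.

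JAG1 encodes Jagged1, a transmembrane Notch ligand (ENSG00000101384, chromosome 20, 10637684 to 10673999, minus strand). Its normalised CPM was 67.2, 53.9 and 58.3 in WT replicates 1 to 3, 352, 272 and 313 with PT2385, and 110.2, 118 and 142 in KO. The 3 groups did not overlap, in the order WT, KO, PT2385. Against WT the ligand rose 5.20-fold with PT2385 (log2 fold change 2.38 with a standard error of 0.104, adjusted p = 2.05e-08, edgeR) and 2.09-fold in KO (log2 fold change 1.06, standard error 0.106, adjusted p = 2.61e-05). The direct comparison, which does not use the WT libraries, gave a log2 difference of -1.34 from PT2385 to KO (standard error 0.113, adjusted p = 2.17e-05). With each library left out in turn, these values ran from 2.28 to 2.47, from 0.95 to 1.16 and from -1.45 to -1.24.

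JAG2, which encodes the other Jagged ligand (ENSG00000184916, chromosome 14, 105140982 to 105168824, minus strand), was counted far less deeply, with 41 to 65 reads per library. Its CPM was 3.69, 3.37 and 3.59 in WT, 5.24, 4.56 and 3.91 with PT2385, and 4.55, 4.23 and 3.92 in KO. Every treated and every KO library lay above every WT library, but neither difference passed the test. The log2 fold change was 0.35 with PT2385 (95% confidence interval -0.049 to 0.76, adjusted p = 0.306, edgeR) and 0.26 in KO (-0.12 to 0.65, adjusted p = 0.295). Groups that do not overlap were found in 26.1% of all tested genes with PT2385, in 43.8% in KO and in 35.4% between KO and PT2385. Among the 9 Notch genes they were found in 5, 8 and 6.

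To set genes beside each other, levels were also expressed per kilobase of merged exons, as transcripts-per-million (TPM) in each library. On that scale JAG1 was at 26.9 ± 3.69 TPM in WT, 147 ± 21.4 with PT2385 and 55.5 ± 9.73 in KO (SD, n = 3), and JAG2 at 2.32 ± 0.203, 3.13 ± 0.523 and 2.75 ± 0.185. JAG1 thus made up 92.0% ± 0.519 of the summed level of both in WT, 97.9% ± 0.297 with PT2385 and 95.2% ± 0.917 in KO. The Delta ligands were at the limit of detection: DLL1 had at most 3 reads in a library, DLL4 at most 1 and DLL3 had 0 in all 9. The Delta-like proteins DLK1 and DLK2 had at most 2 reads. Jagged transcripts were therefore nearly all of the ligand mRNA counted.

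Unlike JAG1, both counted receptor genes stayed close to WT with PT2385, while in KO they moved in opposite directions. NOTCH2 (ENSG00000134250, chromosome 1, 119911553 to 120100779, minus strand) had 554, 564 and 571 CPM in WT, 564, 574 and 607 with PT2385, and 858, 779 and 851 in KO. It rose in KO by 0.57 against WT on the log2 scale (standard error 0.0571, adjusted p = 2.51e-05, edgeR) and by 0.51 against PT2385 (standard error 0.0648, adjusted p = 3.34e-04). All KO libraries lay above the 6 others. With PT2385 the log2 fold change was 0.043, with a 95% confidence interval from -0.072 to 0.16.

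NOTCH2 has partial copies on chromosome 1, and reads from identical stretches cannot be assigned. Of these copies NOTCH2NLA is listed in the count table, at 9.13 ± 0.684 CPM in WT, 9.14 ± 0.234 with PT2385 and 12.0 ± 1.88 in KO (SD, n = 3). Its log2 fold change in KO was 0.40 (standard error 0.146, adjusted p = 0.0591, edgeR).

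NOTCH1 (ENSG00000148400, chromosome 9, 136494433 to 136546048, minus strand) had 204, 219 and 213 CPM in WT, 195, 219 and 218 with PT2385, and 176, 174 and 173 in KO. It fell in KO, and every KO library lay below the 6 others. The difference was small, the log2 fold change being -0.27 against WT (standard error 0.0555, adjusted p = 0.00373, edgeR) and -0.28 against PT2385 (standard error 0.0688, adjusted p = 0.0167). The call against PT2385 was lost without KO replicate 1, PT2385 replicate 2 or PT2385 replicate 3 (adjusted p = 0.0643, 0.121 and 0.0531, edgeR). With PT2385 its log2 fold change was -0.011, with a 95% confidence interval from -0.15 to 0.13.

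NOTCH3 (ENSG00000074181, chromosome 19, 15159038 to 15200995, minus strand) had 0, 2 and 1 reads in WT, 0 in each PT2385 library, and 1, 2 and 0 in KO. These counts are at or under the floor of 3 counts, and no fold change was computed. NOTCH4 had at most 6 reads in a library. Per length, NOTCH2 made up 66.5% ± 0.593 of the summed level of NOTCH1 to NOTCH3 in WT, 67.4% ± 1.10 with PT2385 and 78.1% ± 0.911 in KO (SD, n = 3). The summed level itself was 211 ± 11.1 TPM in WT, 225 ± 5.01 with PT2385 and 264 ± 22.0 in KO.

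The fringes are Golgi glycosyltransferases, of which LFNG and MFNG are known to weaken the response of NOTCH1 to Jagged ligands. MFNG, or Manic fringe (ENSG00000100060, chromosome 22, 37469063 to 37486393, minus strand) had 17.6, 14.8 and 12.5 CPM in WT, 9.44, 9.19 and 9.64 with PT2385, and 25.0, 28.2 and 25.6 in KO. All 3 groups were apart, in the order PT2385, WT, KO. The gene fell with PT2385 (log2 fold change -0.67, standard error 0.139, adjusted p = 0.0118, edgeR) and rose in KO (log2 fold change 0.83, standard error 0.128, adjusted p = 6.01e-04). KO was 2.78-fold above PT2385, which is 1.48 on the log2 scale (standard error 0.107, adjusted p = 7.03e-06). The fall with PT2385 is the least stable of these values, since it lost its call without WT replicate 1, WT replicate 2 or PT2385 replicate 2 (adjusted p = 0.0575, 0.0570 and 0.0605, edgeR). The rise in KO stayed called whichever library was left out.

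LFNG (ENSG00000106003, chromosome 7, 2512529 to 2529177, plus strand) encodes Lunatic fringe, and its KO libraries were the lowest. Its CPM was 193, 199 and 206 in WT, 220.2, 228 and 214 with PT2385, and 129.5, 121 and 117 in KO. In KO it fell, with a log2 fold change of -0.69 to WT (standard error 0.0613, adjusted p = 1.01e-05, edgeR) and of -0.85 to PT2385 (standard error 0.0688, adjusted p = 1.50e-05). With PT2385 all 3 libraries lay above the 3 WT libraries, but the log2 fold change of 0.14 (95% confidence interval 0.016 to 0.27) had an adjusted p of 0.181 and was not called.

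RFNG, or Radical fringe (ENSG00000169733, chromosome 17, 82047902 to 82051831, minus strand) had 14.6, 13.8 and 16.4 CPM in WT, 14.4, 15.1 and 17.4 with PT2385, and 17.2, 15.0 and 15.7 in KO. The groups overlapped in all 3 comparisons. Its log2 fold change was 0.064 with PT2385 (95% confidence interval -0.19 to 0.32) and 0.11 in KO (-0.14 to 0.36). RFNG shares 835 exonic bases with GPS1 on the opposite strand, and without stranded counting some of its 1835 reads over the 9 libraries could come from GPS1, which had 9719.

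Per length, LFNG was the main fringe in every group and also the most abundant of the 10 genes in WT and with PT2385. It stood at 242 ± 17.5 TPM in WT, 280.5 ± 11.7 with PT2385 and 148 ± 8.59 in KO (SD, n = 3), where NOTCH2 was above it with 206 ± 19.5. MFNG was at 20.5 ± 3.32, 13.6 ± 0.403 and 35.9 ± 1.44 TPM. Its share of the 3 fringes was 7.39% ± 1.40 in WT, 4.36% ± 0.210 with PT2385 and 17.9% ± 1.44 in KO, while that of LFNG was 86.8% ± 1.22, 90.0% ± 0.838 and 73.6% ± 1.08. Shares of a class were described and not tested.

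**Figure D2:**
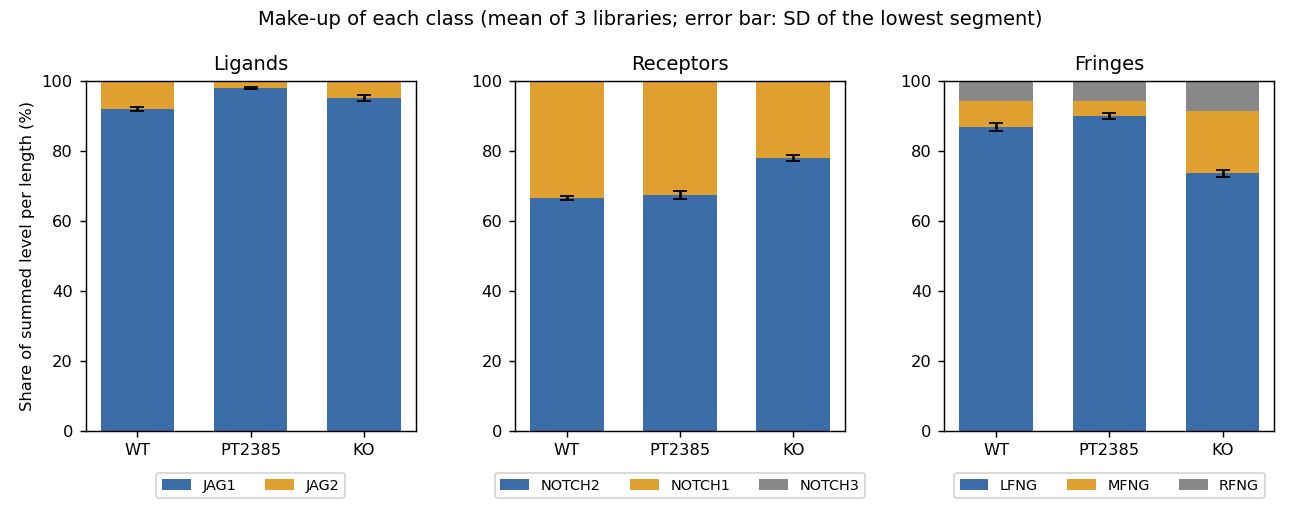
Share of each gene (%, vertical axis from 0 to 100) in the summed TPM of the ligands JAG1 and JAG2, of the receptors NOTCH1 to NOTCH3 and of the fringes in WT, PT2385-treated and KO cells; bars are means of 3 libraries and the error bar is the SD of the lowest segment. JAG1 made up over 90% of the ligands in each group, and in KO the share of NOTCH2 was higher (78.1%) and that of LFNG lower (73.6%) than in WT (66.5% and 86.8%).

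The target genes HES1 and HEY1, which both encode basic helix-loop-helix repressors, did not move together. HES1 (ENSG00000114315, chromosome 3, 194136148 to 194138732, plus strand), whose promoter with its TGGGAA matches is printed above, was counted with 31 to 143 reads per library. Its CPM was 3.69, 3.13 and 2.59 in WT, 11.5, 6.20 and 8.66 with PT2385, and 6.33, 4.30 and 5.15 in KO. Every treated and every KO library lay above WT, whereas PT2385 and KO overlapped. HES1 rose 2.79-fold with PT2385 (log2 fold change 1.48, standard error 0.239, adjusted p = 0.00210, edgeR) and 1.69-fold in KO (log2 fold change 0.75, standard error 0.213, adjusted p = 0.0205). The rise with PT2385 kept its call whichever library was left out, with log2 fold changes from 1.24 to 1.67.

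The rise of HES1 in KO was no longer called without WT replicate 2, WT replicate 3 or KO replicate 1 (adjusted p = 0.0691, 0.0819 and 0.0826, edgeR). Between KO and PT2385 its log2 fold change was -0.74 (standard error 0.234) at an adjusted p of 0.0488. That call was lost in 5 of the 6 fits that left out a library, all but the fit without PT2385 replicate 2, with adjusted p up to 0.163.

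HEY1 (ENSG00000164683, chromosome 8, 79762371 to 79767857, minus strand) had 31 to 76 reads per library. Its CPM was 4.78, 5.92 and 4.60 in WT, 6.13, 4.56 and 4.05 with PT2385, and 2.47, 2.91 and 2.13 in KO. All KO libraries lay below the 6 others, while WT and PT2385 overlapped. HEY1 fell in KO, by log2 fold changes of -1.01 to WT (standard error 0.204, adjusted p = 0.00322, edgeR) and -0.97 to PT2385 (standard error 0.226, adjusted p = 0.0122). With PT2385 the log2 fold change was -0.066, and its 95% confidence interval from -0.50 to 0.37 is wide at this depth.

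**Figure D3:**
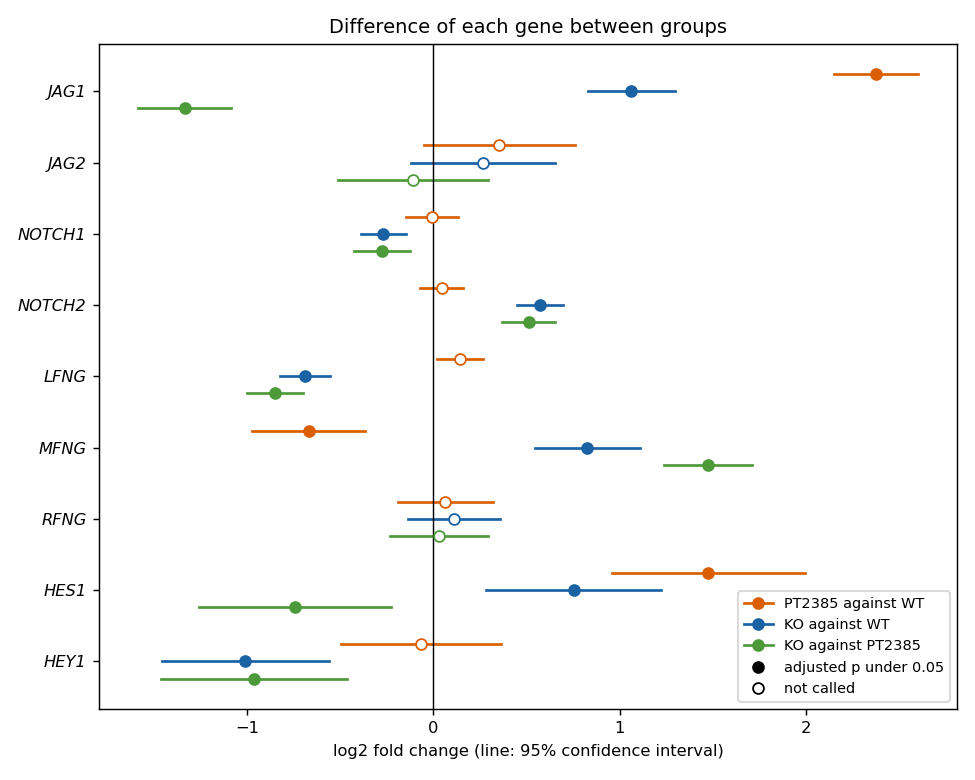
log2 fold change of the 9 tested Notch genes (horizontal axis) with PT2385 against WT (orange), in KO against WT (blue) and in KO against PT2385 (green); lines are 95% confidence intervals from the edgeR fit and filled points have an adjusted p under 0.05. JAG1 and HES1 were higher than WT in both conditions, MFNG lay on opposite sides of 0, and NOTCH1, NOTCH2, LFNG and HEY1 were called in KO but not with PT2385.

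The comparisons of PT2385 and of KO with WT share the WT libraries, so their values are set side by side and the difference between them rests on KO against PT2385. By that comparison the Notch genes fell into 3 patterns. JAG1 and HES1 were higher than WT in both conditions and higher with PT2385 than in KO, the last of these calls being weak for HES1. NOTCH2, NOTCH1, LFNG and HEY1 differed in KO from both WT and PT2385. MFNG differed between all 3 groups, with WT in the middle. Leaving out a library lost the call of HES1 in KO against PT2385 in 5 of 6 fits. It lost 3 further calls in 3 of 6 fits each: NOTCH1 in KO against PT2385, MFNG with PT2385, and HES1 in KO against WT. JAG2 and RFNG were not called in any comparison, and the interval of their log2 difference between KO and PT2385 ran from -0.51 to 0.29 and from -0.23 to 0.29. The spread between replicates was largest for HES1 with PT2385 (coefficient of variation 30.3%) and smallest for NOTCH1 in KO (0.816%), NOTCH3 aside.

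The rest of the pathway was examined with a list of 56 further genes, of which 38 passed the filter with PT2385 and 39 in KO. With PT2385 2 rose and 1 fell, beside 7.7% of all tested genes called. In KO 7 rose and 8 fell, beside 14.7% of all tested genes called higher and 15.4% lower. Both counts lie near these shares and are not a result about the list. In KO the list had a median log2 fold change of -0.028 beside 0.0038 over all tested genes. RBPJ, the DNA-binding effector of the pathway, fell in both conditions, with 171 ± 0.411 CPM in WT, 139 ± 11.5 with PT2385 and 135 ± 5.11 in KO (SD, n = 3). Its log2 fold change was -0.30 with PT2385 (standard error 0.0687, adjusted p = 0.0190, edgeR) and -0.33 in KO (standard error 0.0572, adjusted p = 0.00125). Of the 18 nuclear effectors on the list 15 were tested with PT2385, and of these TLE4, a Groucho-type corepressor, was the only one called higher (log2 fold change 0.22, adjusted p = 0.0492, or 0.0788 with DESeq2), and it also rose in KO (0.41, adjusted p = 9.64e-04). Its relative TLE3 fell in KO, from 26.2 ± 1.31 to 13.3 ± 0.946 CPM. MAML3, a Mastermind coactivator, had 2 to 3 reads per WT library, 3 to 6 with PT2385 and 12 to 22 in KO. It passed the filter only through the KO libraries, so that its place among the 7 genes called higher in KO adds nothing to that count.

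Among 11 enzymes of receptor maturation and cleavage 0 were called with PT2385 by edgeR or DESeq2 (2 had an unadjusted p under 0.05), and 1 rose and 3 fell in KO, where 30.1% of all tested genes were called. ADAM10, the protease of the ligand-induced cut, fell in KO from 306 ± 12.4 to 199 ± 5.31 CPM (log2 fold change -0.60, adjusted p = 1.98e-05, edgeR). FURIN, the convertase that cleaves the receptor precursor, fell from 94.3 ± 1.30 to 60.5 ± 4.92 CPM (-0.63, adjusted p = 6.58e-05). Subunits of γ-secretase moved both ways, with PSEN2 up from 18.0 ± 2.29 to 33.8 ± 3.90 CPM (log2 fold change 0.92) and APH1B down from 6.57 ± 1.14 to 3.73 ± 0.850 (-0.81). In KO against PT2385 1 of the 11 rose and 4 fell by edgeR, where 18.8% of all tested genes were called, and DESeq2 called 4. Among those called by edgeR were FURIN, ADAM10, PSEN2 and APH1B, in the same directions as against WT.

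Of 13 regulators of endocytosis and turnover, 10 were tested, 0 were called with PT2385 by edgeR or DESeq2 (3 had an unadjusted p under 0.05) and 4 rose in KO. Over all tested genes 7.7% were called with PT2385, and 14.7% were called higher in KO. DTX4, a Deltex ubiquitin ligase, rose from 3.30 ± 0.510 to 9.95 ± 2.42 CPM (log2 fold change 1.60, adjusted p = 2.15e-04, edgeR) and DTX2 from 46.6 ± 1.61 to 73.3 ± 7.60 CPM. MIB2, a ligase that acts on Notch ligands, rose by a log2 fold change of 0.54 and DTX3L by 0.25. Of the other HES and HEY genes and NRARP, HES5, HEY2 and HEYL had 0 reads in every library, and NRARP, a feedback target, had 1 to 15. HES6 rose with PT2385 from 6.19 ± 0.888 to 9.40 ± 0.647 CPM (log2 fold change 0.60, adjusted p = 0.0317, edgeR), and HES4 fell in KO from 13.8 ± 0.660 to 8.16 ± 2.30 CPM (-0.74, adjusted p = 0.00864).

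**Figure D4:**
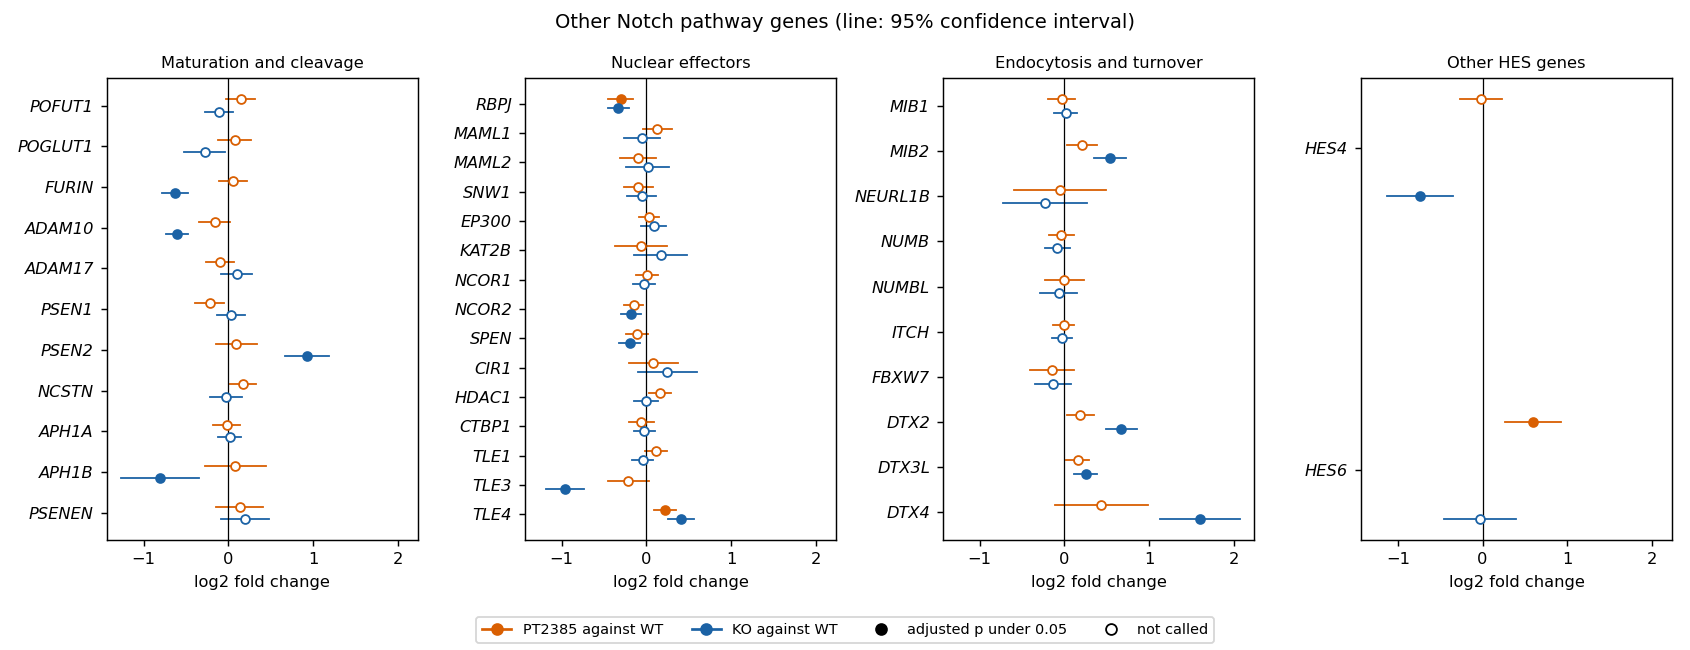
log2 fold change (horizontal axes) of the other Notch pathway genes that passed the filter in both comparisons with WT, in 4 panels by role, with PT2385 in orange and KO in blue; lines are 95% confidence intervals and filled points have an adjusted p under 0.05. RBPJ and TLE4 were called in both conditions, HES6 with PT2385 only by this threshold, and the calls in KO include ADAM10, FURIN, PSEN2, TLE3 and DTX4.

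The levels of JAG1 over the 9 libraries were also compared with those of 10139 genes with a mean of at least 100 reads. The 5 genes with the highest Pearson correlation of log2 CPM were TNIK (r = 0.961), MYL9 (0.960), AKIRIN1 (0.957), KLHL8 (0.956) and LAMB1 (0.953). All 5 followed the order WT, KO, PT2385 in their means, as in TNIK with 81.2 ± 5.15, 107.6 ± 10.1 and 166 ± 14.9 CPM (SD, n = 3). The range was narrower than that of JAG1, for example 466 ± 8.60 to 638 ± 6.33 CPM in LAMB1, a laminin chain. The 5 genes were picked for their likeness to JAG1, so the shared order follows from that choice. The 9 libraries share 3 conditions, so these correlations are given as a description.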

How the data were processed

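RNAseq was analysed from the 9 libraries of 786-0 cells. According to the methods and labels, the authors checked reads with FastQC, trimmed them with cutadapt, aligned them to GRCh38 with STAR and counted them per gene with featureCounts, and the deposited values are raw counts. Tool versions, the annotation release and strandedness are not given in the sources used here. Groups and replicate numbers came from the sample titles.

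Of 58735 identifiers, 58207 were matched to symbols, positions and merged exon lengths in GENCODE release 44 (0 columns were unmapped). Each pair of groups was fitted with edgeR 4.0.16 (R 4.3.3) using TMM, filterByExpr and glmQLFTest. Standard errors were derived from the F statistic. DESeq2 1.42.0, the study's tool, other scalings, filters and thresholds, glmTreat, the replicate block and omission of each library were alternatives. The steps were also run on counts simulated with independent libraries, so that run says nothing about replicates that deviate together.

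Samples numbered alike deviated together from their group means in PT2385 against WT (r from 0.104 to 0.404 in all 3 pairs, 11487 genes). Samples numbered differently gave r from -0.407 to 0.0785, so the lowest like-numbered value lay only just above these. The number was taken to pair these samples, from the data and not the labels. In pairs with KO r ran from 0.0327 to 0.419 for like numbers and from -0.41 to 0.250 for unlike numbers. These ranges overlapped, and the number was not taken as pairing. The main edgeR fits did not use the pairing. It entered only in the replicate block, an alternative that was run in all 3 comparisons, those with KO included. The Notch genes, lists and tests were chosen with earlier results of these data known. All 10 genes are named, with at most 4 called genes per other list and comparison, those of largest change. The floor of 3 counts covers counting error only, and protein sequences were not used here. A further marker of the renal list is not reported here.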

Additional observations from a re-analysis of the deposited data

Results flagged for a closer look

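MFNG and LFNG were singled out because their log2 fold changes against WT had opposite signs with PT2385 and in KO. Both also passed the test of KO against PT2385. That test uses the same KO and PT2385 libraries that gave the opposite signs, so it adds no separate support. For MFNG the log2 fold change against WT was -0.67 with PT2385 and 0.83 in KO, and KO exceeded PT2385 by 1.48 (adjusted p = 7.03e-06, edgeR), higher in 3 of 3 libraries. For LFNG it was 0.14 with PT2385, which was not called, and -0.69 in KO, and KO differed from PT2385 by -0.85 (adjusted p = 1.50e-05, edgeR), lower in 3 of 3 libraries.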

How the results depend on the processing

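Of 405 values of single Notch genes under an alternative, 368 kept their direction and their side of the threshold, 27 kept their direction but were no longer called, and 10 changed sign, all of these in genes that were not called. Sign changes in NOTCH1 with PT2385 were 0.0027 with upper-quartile scaling and 0.010 with library size only. With each library left out, log2 fold changes that crossed 0 ran from -0.043 to 0.039 for NOTCH1, from -0.25 to 0.063 for HEY1 and from -0.021 to 0.14 for RFNG with PT2385, and from -0.027 to 0.12 for RFNG and from -0.20 to 0.0010 for JAG2 in KO against PT2385. HES1 in KO against PT2385 also lost its call with upper-quartile scaling (adjusted p = 0.0515, edgeR) and with at least 10 counts in every library (0.0543).

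The number of Notch genes called moved by over 1.5 times in 3 cases: against a 1.5-fold change (glmTreat) 1 was called in KO against WT (JAG1) and 3 in KO against PT2385 (JAG1, LFNG and MFNG), and at an adjusted p under 0.01, 4 in KO against PT2385. Over the whole table, glmTreat called 172 genes with PT2385, 882 in KO and 528 in KO against PT2385, and the stricter threshold 516, 2788 and 1657. With the replicate block 2305 genes were called with PT2385, 5501 in KO and 3783 in KO against PT2385, and the block changed no call of a Notch gene. Without a library the calls ran from 574 to 1451 with PT2385, from 3344 to 5094 in KO and from 1836 to 3190 in KO against PT2385, and those of Notch genes from 2 to 3, 6 to 7 and 5 to 6. The number fell most with PT2385, to 654, 581, 728 and 574 without WT replicate 1, 2 or 3 or PT2385 replicate 2, and in KO against PT2385 to 1836 without PT2385 replicate 2. HES1, HEY1 and JAG2, with 31 to 143 reads, are the values most limited by depth.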

Other observations

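HES2, a member of the HES family that did not pass the filter on low counts, was chosen here after its values were seen. It had 0 reads in each WT library, 1, 3 and 2 with PT2385, and 4, 15 and 7 in KO. All 3 KO libraries were above the floor of 3 counts and none of the 6 others was. No test was made at this depth.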
